A study of Mus musculus with 8 samples.

Results

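The replication fork polymerases and clamp loader are described here through 10 genes: Pcna, Rfc2, Rfc3, Rfc4, Rfc5, Pola1, Pold1, Pole, Fen1 and Lig1. The members were chosen by symbol from a table of raw counts per gene, in which all 10 were found among 22065 named genes. The measurement was bulk RNA-seq of hematopoietic stem cells (HSCs) from bone marrow, in 4 Mitol KO and 4 Control libraries made from 100 sorted cells each. Mitol (Marchf5) encodes a ubiquitin ligase of the mitochondrial outer membrane, and the comparison asks how its deletion changes transcript levels in HSCs. Both groups came from C57BL/6 mice of 8 to 10 weeks that carried Mitol Flox/Flox and were given Poly:IC, with cells taken 1 week later. The Mitol KO mice also carried MX1-cre, which interferon turns on and which therefore acts in hematopoietic cells and in other cells that respond to interferon, while the Control mice carried no cre. The labels do not say that the 4 libraries of a group came from separate mice, so the p-values measure the spread between these libraries only.

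At a replication fork, DNA is unwound by a helicase and copied by 3 polymerases. Polymerase alpha works with primase to lay down short primers, polymerase epsilon extends the leading strand, and polymerase delta extends the pieces of the lagging strand, which are known as Okazaki fragments. PCNA is the ring that holds polymerases and many other proteins on the DNA, and replication factor C (RFC) opens the ring and closes it around a primer. FEN1 then cuts off the displaced flap of each Okazaki fragment and DNA ligase 1 seals the remaining nick. HSCs in adult bone marrow are mostly out of cycle, and these genes are known to be transcribed more as cells enter S phase, in large part through E2F factors.

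The 10 genes were scanned for E2F-type sites in the reference sequence (GRCm39, the build the files use), from 250 bases before to 50 bases after the start of the canonical GENCODE vM39 transcript. The letters searched on both strands were TTTCCCGC, TTTGGCGC, TTTCGCGC and TTTGCCGC. Of 21757 promoters of protein-coding genes, 614 (2.82%) held at least 1 of them, and 3 of the 10 fork genes did. The 3 windows of 30 bases below are printed in the direction of the gene, with the matches in capitals, because 2 of them belong to the polymerase genes that passed the test between groups.
Pola1 (chrX:92675881-92675910, minus strand): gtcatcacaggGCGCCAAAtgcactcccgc
Pole (chr5:110434192-110434221, plus strand): gagagcacgtggagagcGCGCCAAAttctc
Rfc3 (chr5:151574660-151574689, minus strand): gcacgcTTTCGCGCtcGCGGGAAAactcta
The Pola1 match lies 86 bases before the start, the Pole match begins at base 38 of the transcript, and the Rfc3 matches begin at bases 25 and 35, with the first transcribed base counted as 1. Pola1 and Pole share the same 8 letters, which are TTTGGCGC on the other strand. No match was found in these windows for the other 7 genes. Among the 64 partner genes described further on, 8 (12.5%) held a match.

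The libraries held between 7214935 and 12398138 counts in named genes. The share of mitochondrially encoded transcripts ran from 2.70% to 3.80%, with the highest value in Mitol KO 1. Marchf5 itself had 276, 232, 308 and 281 normalized counts in the 4 Mitol KO libraries and 299, 312, 333 and 262 in the 4 Control libraries, where a normalized count is the raw count over the library's DESeq2 size factor. Its log2 fold change was −0.15 (SE 0.13, edgeR, Benjamini-Hochberg adjusted p = 0.498), and a count over the whole gene cannot tell a transcript without the deleted exons from an intact one. All 10 HSC markers described here were detected, and their summed level was 19507 to 23149 in Mitol KO and 27955 to 32959 in Control libraries. Of these, Kit and Hlf passed the test as lower (log2 fold changes −0.75 and −0.79, edgeR adjusted p = 0.00705 and 0.00381), and together with Mecom they make up most of the sum. Of the 10, 2 had positive log2 fold changes: Slamf1 (CD150), used in the gate, with 0.56, and Ly6a (Sca-1), with 0.76. Neither passed (edgeR adjusted p = 0.0501 and 0.0605), and Slamf1 was above all Control libraries in all 4 Mitol KO libraries. Procr (EPCR), also used in the gate, had a log2 fold change of −0.34 and did not pass (edgeR adjusted p = 0.179). Cd48, which the sort gate excluded, was at 22.2 to 63.4 in Mitol KO and at 4.49 to 21.7 in Control libraries (edgeR adjusted p = 0.0450).

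Transcripts of the fork genes had positive log2 fold changes in Mitol KO HSCs for all 9 members that could be tested, and 2 of them, Pola1 and Pole, passed the test as higher. Genes were tested by edgeR's quasi-likelihood method, with p-values adjusted over 16444 genes by Benjamini-Hochberg and an adjusted p under 0.05 as the threshold. It called 8.43% of all tested genes, with 4.68% higher and 3.75% lower in Mitol KO HSCs. At an unadjusted p under 0.05, 7 of the 9 members were higher, against 13.6% of all tested genes. The direction split of all calls depends on the scaling: 770 genes were higher and 616 lower with TMM factors, against 594 and 845 with upper-quartile factors. The median log2 fold change was 0.63 over the 9 tested members and −0.02 over all tested genes. DESeq2 placed 5 members past the threshold as higher (Pola1, Pole, Rfc2, Rfc5 and Pold1), where it called 8.37% of the genes it tested higher. By limma-voom 0 members passed, with 7 at an unadjusted p under 0.05, where it called 4.47% of all tested genes higher. In bulk RNA a higher level can come from more cells that transcribe a gene or from more RNA in each cell, and these cannot be told apart here.

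**Figure D1:**
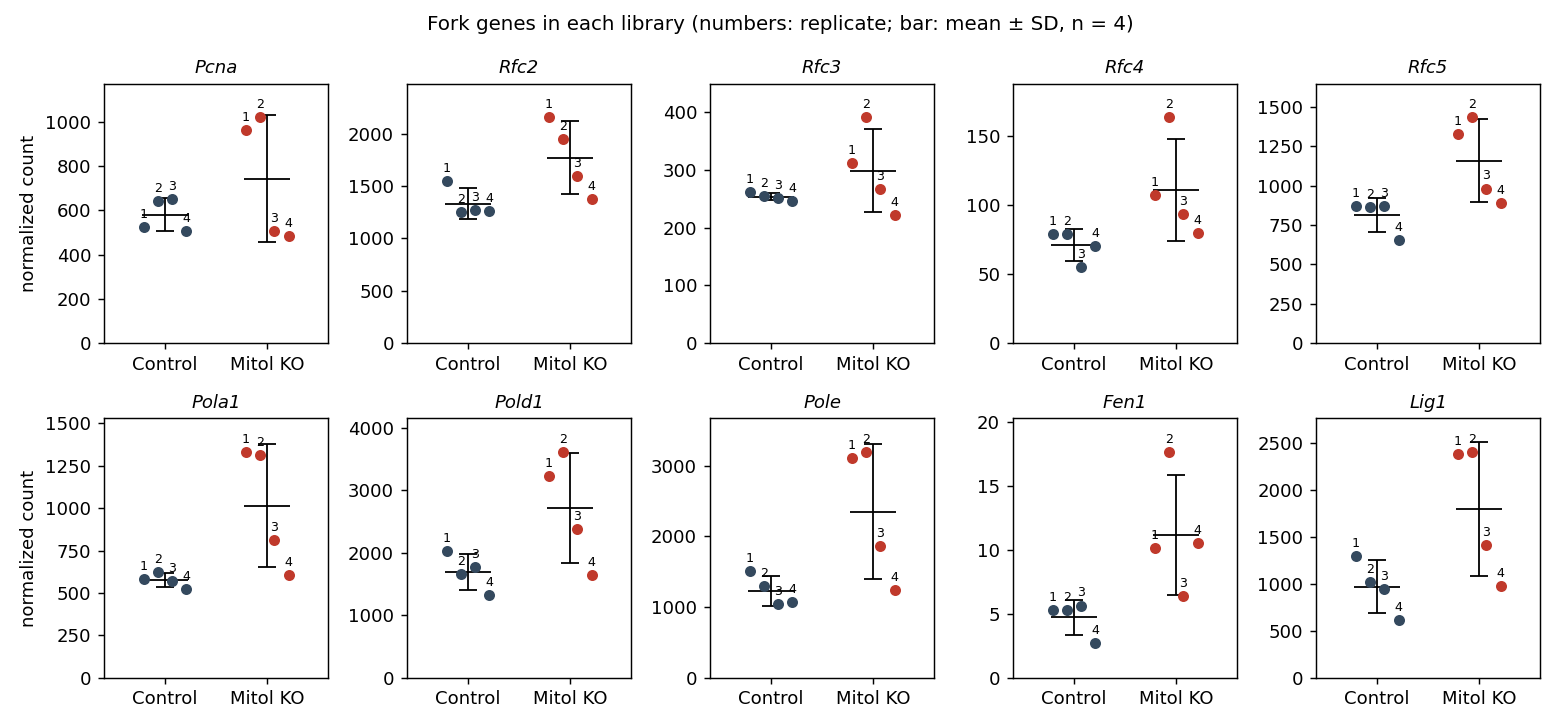
Normalized counts of each fork gene on linear axes from 0, with 1 numbered point per library and bars for the mean ± SD of each group (n = 4). Mitol KO 1 and 2 sit above every Control library in all 9 tested genes (21.6% of all tested genes do so), while Mitol KO 4 lies within the Control range for 5 of them, a share near the 53.7% of all tested genes.

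Pola1, the catalytic subunit of polymerase alpha, starts every new strand from the primer that primase makes. It had 1330 (Mitol KO 1), 1310.3, 809 and 607 normalized counts in the Mitol KO libraries and 583, 620.3, 569.9 and 522 in the Control libraries. Mitol KO 1, 2 and 3 lay above every Control library, and Mitol KO 4 lay inside the Control range. The log2 fold change was 0.80 (SE 0.21, edgeR adjusted p = 0.0357), and a 2-sided exact permutation test over the 70 arrangements of the libraries gave p = 0.0571, where the smallest p this design allows is 0.0286. The highest to lowest ratio was 1.19 among Control and 2.19 among Mitol KO libraries.

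Pole, the catalytic subunit of polymerase epsilon, copies the leading strand. Its level was 3108, 3189, 1866 and 1236 in Mitol KO libraries and 1505, 1292, 1044 and 1072 in Control libraries. Mitol KO 1, 2 and 3 were above all Control libraries and Mitol KO 4 was below Control 1 and 2. Pole had the largest log2 fold change of the 9 tested members, 0.92 (SE 0.25, edgeR adjusted p = 0.0416), with p = 0.0857 in the exact permutation test. The call of both polymerases rests on several libraries at once. Leaving out any of Mitol KO 1, 2 or 3 or Control 2, 3 or 4 left 0 members past the threshold by edgeR, with 6 to 8 at an unadjusted p under 0.05, and leaving out Control 1 left Pole alone. Without Mitol KO 4, by contrast, 6 members passed. The calls over all genes moved the same way, so these shifts are not particular to the fork genes. With all libraries 1386 of 16444 tested genes passed, and without Mitol KO 4 2501 of 16907 did. In the runs with 0 members, 359 of 16778 (without Control 2) to 811 of 16695 (without Control 3) passed.

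Pold1, the catalytic subunit of polymerase delta, extends lagging-strand fragments and proofreads them. It was at 3226, 3611, 2380.1 and 1640 (Mitol KO 4) normalized counts in the Mitol KO libraries and at 2022, 1655, 1767 and 1328 in the Control libraries. The same 3 Mitol KO libraries were above all Control libraries, and Mitol KO 4 was lower than 3 of the 4 Control values. The log2 fold change was 0.66 (SE 0.20), which missed the threshold by edgeR (adjusted p = 0.0636) and passed it by DESeq2 (adjusted p = 0.0143), with p = 0.114 in the exact permutation test.

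Pcna, the sliding clamp, was at 966, 1021, 507 and 484 normalized counts in Mitol KO libraries and at 526, 642, 650.0 and 506 in Control libraries. Only Mitol KO 1 and 2 exceeded the Control range, Mitol KO 3 lay inside it, and Mitol KO 4 lay below every Control library. The group means were 744 ± 289 and 581 ± 75.2 (SD, n = 4 each), and the log2 fold change of 0.34 (SE 0.22) did not pass the test (edgeR adjusted p = 0.367). The reference genome carries processed copies of Pcna, of which the Pcna-ps2 entry held 1.32 to 9.35 normalized counts in any library, so few reads were assigned to it.

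Levels were also set against Pcna in the same library. The log2 ratio of Pola1 to Pcna was 0.33 to 0.67 in Mitol KO and −0.19 to 0.15 in Control libraries, so the groups did not overlap. They overlapped for the other 7 genes, as for Pole (1.35 to 1.88 and 0.68 to 1.51) and Lig1 (1.02 to 1.48 and 0.28 to 1.30). The mean log2 ratio to Pcna was higher in Mitol KO by 0.57 for Pole, 0.56 for Lig1 and 0.35 for Pold1, and by 0.32 for Rfc4, 0.21 for Rfc5 and 0.11 for Rfc2. For Rfc3 it was lower, with a difference of −0.076. These ratios are differences within a library and cancel its scaling, and no test was run on them. The share of all genes whose ratio to Pcna separates the groups was not computed. The separation for Pola1 is thus given without a background and is not read as particular to it.

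The clamp loader holds the large subunit Rfc1 and the small subunits Rfc2, Rfc3, Rfc4 and Rfc5, which form an ATP-driven spiral around the clamp. None of the 5 passed the test by edgeR, while 4 of them had an unadjusted p under 0.05 and DESeq2 called Rfc2 and Rfc5.

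Rfc2 was at 2154, 1951, 1592 and 1378 normalized counts in Mitol KO libraries and at 1548, 1249, 1272 and 1256 in Control libraries. Mitol KO 1, 2 and 3 were above all Control libraries, and Mitol KO 4 fell between Control 1 and the other 3. The log2 fold change was 0.39 (SE 0.13, edgeR adjusted p = 0.0839, DESeq2 adjusted p = 0.0439). Rfc5 was at 1331, 1433, 981 and 889 in Mitol KO libraries and at 869, 863, 871 and 651 in Control libraries. Here the groups did not overlap, although Mitol KO 4 was within a few percent of 3 Control libraries. The log2 fold change was 0.49 (SE 0.15, edgeR adjusted p = 0.0660, DESeq2 adjusted p = 0.0250), and the exact permutation p was 0.0286, the smallest this design can give. On CPM (counts scaled to the library total) in place of normalized counts, the exact permutation p of Rfc5 was 0.114.

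Rfc4 had the lowest level of the loader genes, with 107, 163, 93.4 and 79.4 normalized counts in Mitol KO libraries and 79.1, 78.7, 54.6 and 70.05 in Control libraries. The groups did not overlap, but Mitol KO 4 and Control 1 differed by less than 1 normalized count. The exact permutation p of Rfc4 was 0.0286, and 0.0857 on CPM. Its log2 fold change was 0.63 (SE 0.25, edgeR adjusted p = 0.127). Groups that did not overlap with Mitol KO higher were found for 2 of the 9 tested members, Rfc4 and Rfc5, and for 8.17% of all tested genes, all by normalized counts. On CPM neither gene kept the smallest p of the design, so neither separation held under that scaling. Groups that did not overlap with Mitol KO lower were found for 0 members and 7.18% of all tested genes.

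Rfc3 was the flattest of the 9 tested members. It was at 312, 391, 267 and 222 normalized counts in Mitol KO libraries and at 261, 255, 251 and 246 in Control libraries. Mitol KO 4 was below and the other Mitol KO libraries above all 4 Control libraries, which differed by a ratio of 1.06 from highest to lowest. The log2 fold change was 0.22 (SE 0.16, edgeR adjusted p = 0.423). Rfc1, the subunit that completes the loader, had group means of 1246 ± 370 in Mitol KO and 899 ± 93.1 in Control HSCs (SD, n = 4 each) and a log2 fold change of 0.45 (SE 0.18, edgeR adjusted p = 0.131).

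Lig1, the ligase that joins Okazaki fragments, was at 2382, 2399, 1415 and 980 (Mitol KO 4) normalized counts in Mitol KO libraries and at 1294, 1019, 945 and 615 in Control libraries. Mitol KO 1, 2 and 3 were above all Control libraries, and Mitol KO 4 lay inside a Control range that was itself the widest of the 9 tested members, with a highest to lowest ratio of 2.10. The log2 fold change of 0.87 (SE 0.27) was second in size to that of Pole but missed the threshold (edgeR adjusted p = 0.0645, DESeq2 adjusted p = 0.0854).

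Fen1, the flap endonuclease, had few reads and stayed below the expression filter of the test. Its raw counts were 13, 17, 7 and 10 in Mitol KO libraries and 4, 5, 6 and 3 in Control libraries. The groups did not overlap, by a margin of 1 read between Mitol KO 3 and Control 3, and the normalized means were 11.2 ± 4.70 and 4.74 ± 1.37 (SD, n = 4 each). In a fit with no expression filter, the log2 fold change was 1.23 (SE 0.57, edgeR adjusted p = 0.227). Of the exons of its canonical transcript, 20.6% of bases lie in no exon of another gene, and the rest are shared with Gm10143, an antisense transcript, and with Tmem258. Gm10143 held 5.20 to 26.5 normalized counts in Mitol KO and 18.8 to 29.8 in Control libraries, and Mitol KO 2, the highest library for Fen1, was its lowest. The library kit does not mark strand, so reads from Fen1 and its antisense partner cannot be told apart, and how shared reads were counted is not given in the sources used here.

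**Figure D2:**
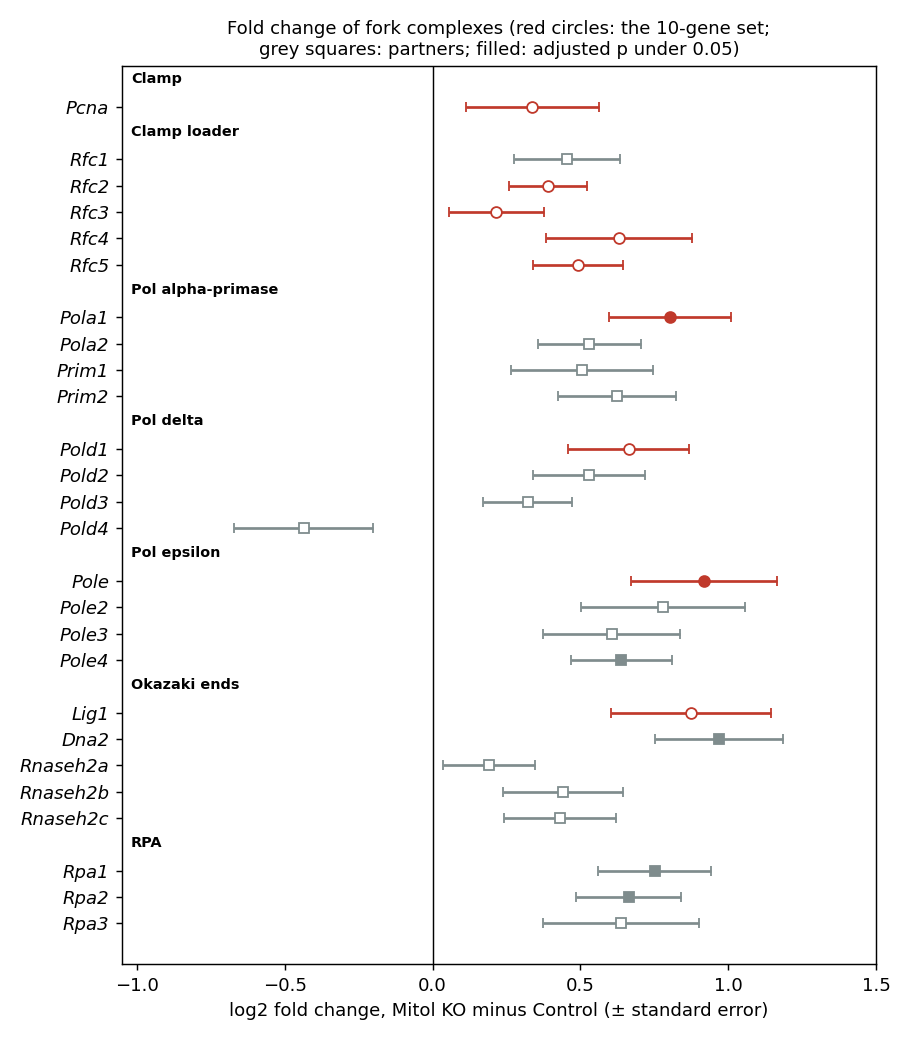
Log2 fold change (Mitol KO against Control, edgeR) with its standard error for the 9 tested fork genes (circles) and for partners (squares: other subunits, Dna2, RNase H2 and RPA), filled where the adjusted p is under 0.05. All 9 fork genes lie above 0, from 0.22 for Rfc3 to 0.92 for Pole, and Pold4 is the plotted gene that lies below 0.

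The libraries of the Mitol KO group differed among themselves in the same way for every tested member. Mitol KO 1 and 2 were both above Mitol KO 3 and 4 in 9 of 9 members, against 27.3% of all tested genes, and Mitol KO 4 was the lowest of its group in 9 of 9, against 29.7%. Mitol KO 3 was above all Control libraries in 8 members, Pcna being the exception, against 26.2%. After each gene was centred on its own mean over the 8 libraries, the mean of the 9 members was 0.60, 0.73, 0.06 and −0.27 (log2) in Mitol KO 1 to 4 and −0.11, −0.21, −0.31 and −0.49 in Control 1 to 4. Mitol KO 4 was thus lower than 2 Control libraries by this mean, and the span between libraries was 1.00 in the Mitol KO group against 0.37 in the Control group. Genes of 1 pathway share their libraries, so 9 members in 1 order are not 9 independent observations.

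The summed level of 6 macrophage markers followed the same order of Mitol KO libraries, with 258, 372, 165 and 98.4 normalized counts in Mitol KO 1 to 4 and 79.1 to 154 in Control libraries. Of these, 5 were tested and 0 passed by edgeR, with 2 at an unadjusted p under 0.05 and 1 called by DESeq2. The share of mitochondrially encoded transcripts was also highest in Mitol KO 1. The part of either in the fork gene levels was not tested. Of 9 red-cell markers, 6 were tested and 2 passed as higher, against 4.68% of all tested genes, with a median log2 fold change of 1.83. Gata1, an erythroid and megakaryocyte transcription factor, was at 114, 131, 297 and 305 in Mitol KO libraries and at 6.29 to 31.9 in Control libraries (log2 fold change 3.30, edgeR adjusted p = 0.00381). Hbb-bt, a globin, was at 815, 801, 1432 and 1408 against 144 to 595 (log2 fold change 1.29, edgeR adjusted p = 0.0442). Both were above every Control library in all 4 Mitol KO libraries and highest in Mitol KO 3 and 4, where the fork genes were lower, and their part in the fork gene levels was not tested. The summed level of the 9 was 5216 to 7223 in Mitol KO and 4647 to 6283 in Control libraries, most of it Car2 (3631 to 4550.3 and 3885 to 6021), and Hba-a1 was at 388 in Mitol KO 3 and at most 7.91 in the other libraries. Summed markers of neutrophils (8 of 10 in the table) were 485 to 1023 against 405 to 616, mostly Prtn3 (462 to 1006 against 332 to 566), while S100a9 was listed at 0 in every Mitol KO library and at 2.64 to 21.3 in Control libraries, and S100a8 was at 0 to 1.57 against 0 to 51.2. Summed markers of B cells (4 of 8) were 136 to 150 against 145 to 204, of T cells (3 of 7) 189 to 259 against 172 to 200, and of mast cells (1 of 8, Cpa3) 7.32 to 13.8 against 11.3 to 21.1.

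**Figure D3:**
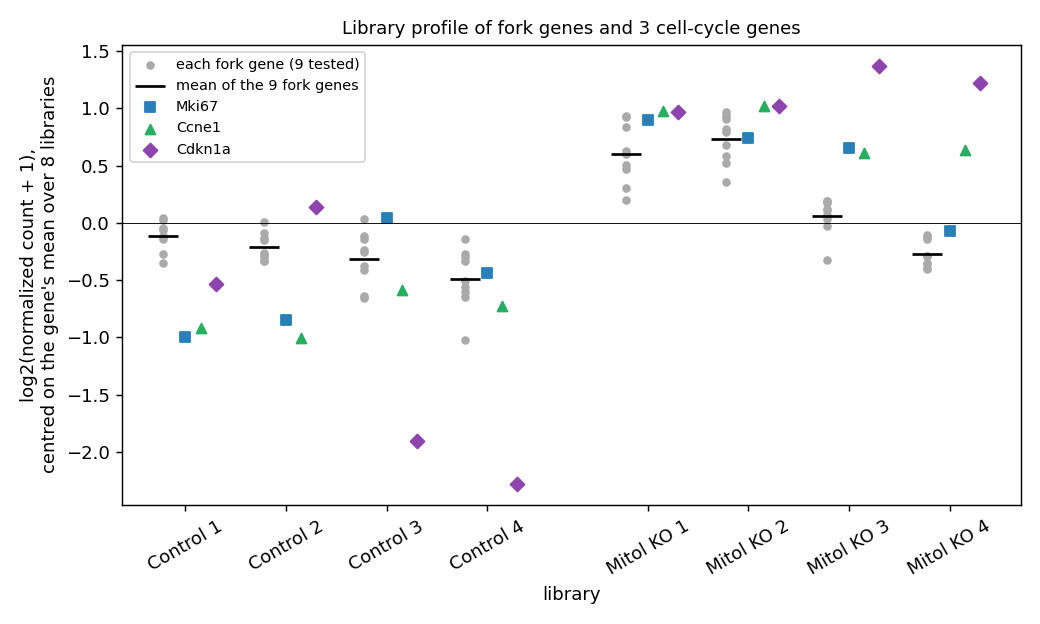
Log2(normalized count + 1) of each tested fork gene in each library, centred on the gene's mean over 8 libraries, with the mean of the 9 as a bar and Mki67, Ccne1 and Cdkn1a beside it. The mean of the fork genes is 0.60 and 0.73 in Mitol KO 1 and 2 and −0.27 in Mitol KO 4, whereas Ccne1 and Cdkn1a stay above the Control libraries in all 4. Mki67 in Mitol KO 4 lies inside the Control range.

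Markers of cycling cells were checked because fork genes are transcribed with S phase. Of 10 such genes, 6 passed the test as higher and 1, Ccnd2, as lower, against 4.68% and 3.75% of all tested genes. Among those that passed as higher were Ccnb1, Top2a and Cdk1, with log2 fold changes of 1.57, 1.24 and 1.08. Ccne2 (0.90), Cdk2 (0.10) and Ccnd1 (−0.15) did not pass. Mki67, a marker of cells out of G0, was at 3906, 3493, 3296 and 1991 normalized counts in Mitol KO libraries and at 1049.8, 1164, 2158 and 1548 in Control libraries (log2 fold change 1.08, edgeR adjusted p = 0.0197). Mki67 was high in Mitol KO 3, where the fork genes were near the mean, and Control 3 was above Mitol KO 4. Ccne1, the cyclin that drives entry into S phase, was at 154, 159, 120 and 122 in Mitol KO libraries and at 40.9, 38.3, 51.8 and 46.7 in Control libraries. All 4 Mitol KO libraries were above all Control libraries, Mitol KO 4 included (log2 fold change 1.62, edgeR adjusted p = 0.00344). This was also so for Ccna2 and Ccnb1. Ccne2, by contrast, was at 146, 175, 114 and 56.1 in Mitol KO libraries and at 98.9, 72.4, 55.6 and 35.9 in Control libraries (edgeR adjusted p = 0.130). For Ccne2, Top2a and Cdk1, as for Mki67, Mitol KO 4 was the lowest of its group and lay inside the Control range. The root mean square distance from the mean fork profile over the 8 libraries was 0.47 for Mki67 and 0.59 for Ccne1. Over the 10 cycling markers it ran from 0.29 (Cdk2) to 1.02 (Ccnb1), with Ccne2 at 0.37 and Cdk1 at 0.43. The fork genes had 0.10 (Pold1) to 0.25 (Lig1), but each is part of that mean, so a small distance is partly built in. Ranked among 12004 other tested genes, Pold1 would be at 21, Lig1 at 938 and Cdk2 at 1659, so many other genes lay closer than Lig1.

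Those 12004 genes were the tested genes outside the fork set with a mean of at least 50 normalized counts. By the same distance, the 5 closest to the mean fork profile were Psat1 (0.044), Blm (0.054), Rpa2 (0.062), Usp1 (0.070) and Wdr90 (0.079). The median over all 12004 was 0.45. Psat1 encodes an enzyme of serine synthesis, Blm a helicase of recombination intermediates, and Usp1 the enzyme that removes ubiquitin from PCNA. Psat1 was at 1210.0, 1397, 856 and 668 normalized counts in Mitol KO libraries and at 724, 653, 641 and 559 in Control libraries. Mitol KO 1 and 2 were highest, and Mitol KO 4 was inside the Control range, as it was for 5 of the 9 tested fork genes. Psat1 was picked for its closeness to the fork profile, so a shared order of libraries follows from the choice.

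The other subunits of the polymerases gave mostly positive log2 fold changes. In polymerase alpha, Pola2, Prim1 and Prim2, the accessory and primase subunits, had log2 fold changes of 0.53, 0.51 and 0.62, and 0 of 3 passed by edgeR, with 2 at an unadjusted p under 0.05 and 2 called by DESeq2. In polymerase epsilon, Pole4, a small histone-fold subunit, passed the test, with 402 ± 54.6 normalized counts in Mitol KO and 256 ± 60.6 in Control HSCs (SD, n = 4 each). Its log2 fold change was 0.64 (SE 0.17, edgeR adjusted p = 0.0416), and all 4 Mitol KO libraries were above the Control libraries. Pole2 and Pole3 had log2 fold changes of 0.78 and 0.61 and did not pass (edgeR adjusted p = 0.0994 and 0.119).

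Polymerase delta was uneven. Pold2 and Pold3 had log2 fold changes of 0.53 and 0.32 (edgeR adjusted p = 0.101 and 0.201), while Pold4, the smallest subunit, which is known to be degraded after DNA damage, had one of −0.44 (SE 0.24, edgeR adjusted p = 0.262). Pold4 was at 46.2, 63.4, 83.3 and 86.8 normalized counts in Mitol KO libraries and at 106, 100.02, 80.1 and 88.0 in Control libraries. The 2 libraries with the highest fork genes, Mitol KO 1 and 2, had the lowest Pold4, but the groups overlapped in Mitol KO 3 and 4.

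Levels were compared between genes per kilobase of canonical transcript. In Control HSCs, Pold1 (479 normalized counts per kilobase) and Pcna (383) were highest, Lig1 (287), Rfc2 (266), Rfc5 (204) and Rfc3 (192) followed, Pole (151) and Pola1 (106) were lower, and Rfc4 (41.3) and Fen1 (1.80) were lowest. In Mitol KO HSCs, Pold1 (768) was again highest, followed by Lig1 (532) and Pcna (490). The order depends on the length used. Some exons of Pcna, Rfc2, Rfc4, Rfc5 and Fen1 are shared with a neighbour, and how reads there were counted is not known. Lig1 and Pole share fewer bases, with 93.3% and 99% of the canonical transcript in no exon of another gene. Per kilobase found in no other gene's exon, an alternative chosen after seeing the data, the Control values were 570.2 for Pcna, 517 for Rfc5, 479 for Pold1, 405 for Rfc2 and 8.75 for Fen1. Per kilobase of all annotated exons of a gene, also chosen after seeing the data, Rfc3 was at 68.8, Pola1 at 41.3, Pole at 101 and Rfc4 at 31.8. Rfc4 and Fen1 were the lowest of the 10 on all 3 scales, and the order of the others was not the same.

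**Figure D4:**
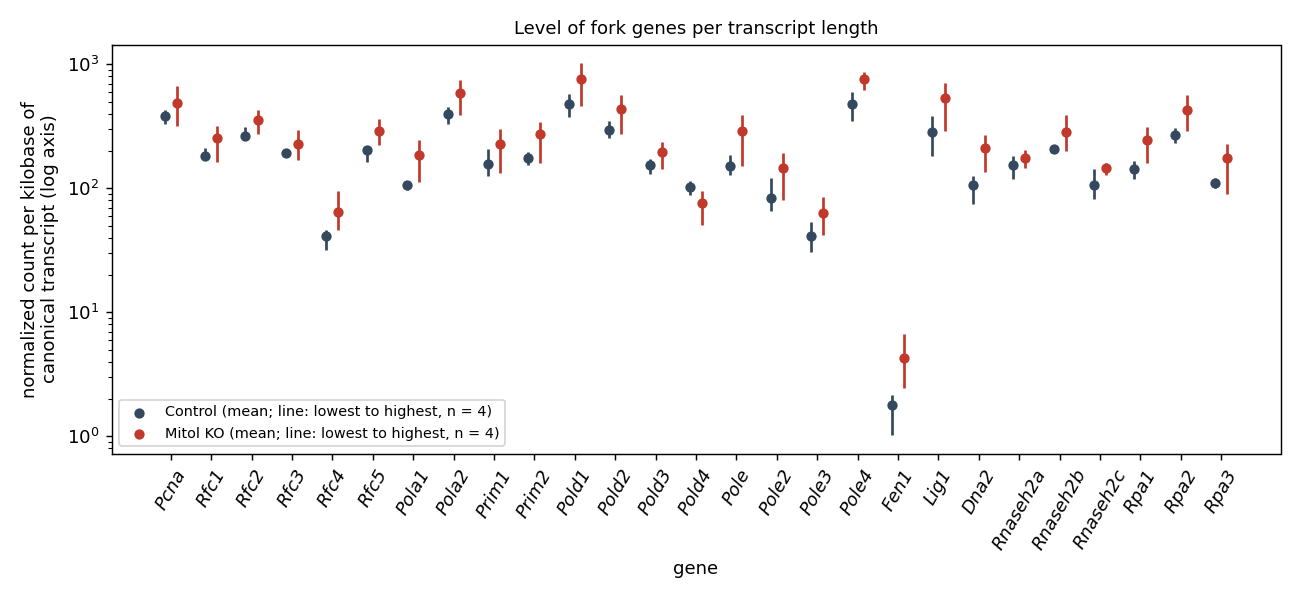
Normalized counts per kilobase of canonical transcript (log axis) for the fork genes, the other subunits of their complexes, Dna2, RNase H2 and RPA, with points at the mean of each group and lines from its lowest to its highest library (n = 4). Levels span from 1.80 for Fen1 to 483 for Pole4 in Control HSCs. The value of Pole4 rests on a canonical transcript of 529 bases and is 47.3 per kilobase of all its annotated exons.

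Of the 64 partner genes in 12 lists, 62 were tested, 57 of these had a positive log2 fold change, 12 passed the test as higher and 1 as lower, and the median log2 fold change was 0.52. The background for these counts is 4.68% of all tested genes called higher and 3.75% called lower. Among proteins that bind single-stranded DNA, Rpa1 and Rpa2 passed, with log2 fold changes of 0.75 and 0.66 (edgeR adjusted p = 0.0346 and 0.0418), and Rpa3 had 0.64 without passing. Dna2, the nuclease that trims long flaps, passed with 890 ± 272 normalized counts in Mitol KO and 450 ± 97.7 in Control HSCs (log2 fold change 0.97, edgeR adjusted p = 0.0220), while the 3 subunits of RNase H2, which removes primer RNA, had 0.19 to 0.44 and did not pass.

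In the helicase and scaffold list, all 11 genes had positive log2 fold changes, with a median of 0.82, and 3 passed. Mcm10, which activates the helicase, was at 765, 775, 452 and 342 normalized counts in Mitol KO libraries and at 287, 252, 288 and 173 in Control libraries. All Mitol KO libraries were above all Control libraries (log2 fold change 1.21, SE 0.25, edgeR adjusted p = 0.0179). Gins1, a subunit of the helicase complex, and Clspn, the adaptor of the checkpoint kinase at the fork, had log2 fold changes of 0.96 and 1.04 (edgeR adjusted p = 0.0293 and 0.0416). Cdc45 was just outside the threshold (1.01, edgeR adjusted p = 0.0540) and Gins4 was flat (0.03).

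Of 12 factors that bind or modify PCNA, 4 passed as higher and 1 as lower. The largest log2 fold change was that of Cdkn1a (p21), which binds PCNA and blocks cyclin-dependent kinases, at 1.99 (SE 0.41, edgeR adjusted p = 0.0170). Its normalized counts were 323, 337, 429 and 385 in Mitol KO libraries and 113, 182, 43.3 and 33.2 in Control libraries. The groups did not overlap, and Mitol KO 3 and 4, the libraries with the lower fork genes, had the higher Cdkn1a. Parpbp, which restrains recombination at forks, Pclaf, a PCNA clamp-associated factor, and Uhrf1, which maintains DNA methylation behind the fork, had log2 fold changes of 1.57, 1.27 and 1.12 (edgeR adjusted p = 0.0158, 0.0371 and 0.0464). Shprh, a ubiquitin ligase for PCNA, was lower in all 4 Mitol KO libraries than in any Control library (985 ± 46.6 and 1281 ± 174, SD, n = 4 each, log2 fold change −0.40, edgeR adjusted p = 0.0403).

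DNA polymerases that do not copy the genome at normal forks were described as 2 lists. The 7 genes for translesion synthesis had a median log2 fold change of 0.08, and 0 passed by edgeR, with 1 (Polh, 0.50) at an unadjusted p under 0.05 and 1 called by DESeq2. Of 7 tested repair and mitochondrial polymerases, Polq, which joins broken ends, passed as higher, with a larger log2 fold change than any tested fork gene (1.03, SE 0.26, edgeR adjusted p = 0.0347), and Polg, which copies mitochondrial DNA, was at 0.04. The other ligases, Lig3 and Lig4, had 0.01 and 0.19 with 0 at an unadjusted p under 0.05 by edgeR and 0 called by DESeq2. In the 4 tested genes of the alternative clamp loaders, which share the small RFC subunits, the median was 0.66 and 0 passed by edgeR, with 3 at an unadjusted p under 0.05 and 1 called by DESeq2.

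The E2F-type sites can be set beside these values. Of 12229 tested genes with a scanned promoter, the 484 with a match had a median log2 fold change of 0.14 and 10.7% were called higher, and the 11745 without a match had 0.02 and 5.77% called higher. Of the 3 fork genes with a match, Pola1 and Pole passed the test and Rfc3, which holds 2 of the sites, had the smallest fold change of the 9 tested. The CCAAT box was found in 39.9% of all promoters and in 3 of the 10 fork genes, and TTTGAA, a cell-cycle element, in 17.1% and in 1, Fen1. For CCAAT, 6.77% of tested genes with a match were called higher, against 5.45% without. For TTTGAA the shares were 7.95% and 5.66%. Each motif thus had a higher share with a match, and the gap was widest for the E2F-type sites. Median log2 fold changes with and without a match were 0.038 and 0.0165 for CCAAT, and 0.044 and 0.022 for TTTGAA. No test was run on these shares. A match is a description of the letters and no evidence of binding.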

How the data were processed

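The authors aligned single-end RNA-seq reads with STAR to mm39, merged alignments with SAMtools and used Subread to count reads per gene, and the deposited values are these raw counts. The annotation, the strand setting and the treatment of shared reads are not given in the sources used here. The deposited table held 23094 entries of at least 11 counts each. Of these, 1029 without a symbol (0.335% to 0.467% of a library) were left out. Of 22065 named genes, 21526 matched GENCODE vM39, the source of positions and lengths on GRCm39.

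Counts were tested with edgeR (version 4.0.16, R 4.3.3) using the quasi-likelihood test, TMM factors, the default expression filter, group as the sole term and Benjamini-Hochberg adjustment over all 16444 tested genes at 0.05. The study used DESeq2, which is an alternative here (version 1.42.0), as is limma-voom (version 3.58.1). Other alternatives were DESeq2 size factors, upper-quartile factors, no filter, CPM for the permutation tests, a threshold of 0.01, the replicate number as a block and each library left out. Exact permutation tests were 2-sided on log2(normalized count + 1). The fits were tested on simulated data with 200 genes changed by a log2 fold change of 1 among 16184: edgeR recovered 57% with 5.79% false calls, and DESeq2 69% with 15.3%. By limma-voom the values were 55% and 2.65%. In this simulation, many changes of that size were thus missed. It changed a smaller share of genes than the 8.43% called in the data. Recovery at an adjusted p depends on that share, so these rates need not hold for the data.

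Named genes were the 10 members, the subunits of their complexes, partner genes past the threshold, the 5 genes of the closest profile and the markers. Rpa3, Cdc45, Gins4, Polg, Lig3, Lig4 and the RNase H2 subunits were named after their values were seen. The members and lists were chosen with earlier results of these data known. No protein sequence was used here. Some marker genes of the lists are not reported here and were left out of the summed levels.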

Additional observations from a re-analysis of the deposited data

Results flagged for a closer look

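In 3 of the 20 groups of 4 libraries checked, 1 Control library stood apart, where chance flags about 1 in 20 groups. The measure is the gap from the extreme library to its nearest neighbour as a share of the group's range (Dixon's test). The genes share the same 8 libraries, so these are not 20 independent checks. The share of all tested genes flagged by this rule was not computed. Rfc2 was at 1548 normalized counts in Control 1 and at 1272 in the next library, a gap of 0.925 of the range. Rfc5 was at 651 in Control 4 and at 863 in the next library (0.962 of the range). Fen1 was at 2.69 in Control 4 and at 5.28 in the next library (0.873 of the range), which is a difference of few reads.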

How the results depend on the processing

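No tested fork gene changed direction under any alternative run. Of their single values under alternatives, 100 kept their side of the threshold, 11 passed it newly and 15 lost it. On CPM, Rfc4 and Rfc5 lost the exact permutation p of 0.0286 (0.0857 and 0.114). The count of fork genes past the threshold was 2, and 5 with DESeq2, 0 with limma-voom and 0 at a threshold of 0.01 (each with 7 at an unadjusted p under 0.05), and 0 to 6 with 1 library left out. It was 6 without Mitol KO 4, 1 without Control 1 and 0 without any of the other 6 (6 to 8 at an unadjusted p under 0.05). The partner count was 13, and 25 with DESeq2, 8 with limma-voom, 0 at 0.01 (36 at an unadjusted p under 0.05) and 2 to 38 with 1 library left out: 38 without Mitol KO 4, 12 without Control 1, 5 without Mitol KO 3, 4 without Control 3, 3 without Mitol KO 1 and 2 without each of Mitol KO 2, Control 2 and Control 4. Over all genes, 1386 passed, 2317 with DESeq2, 166 at 0.01 and 359 (without Control 2) to 2501 (without Mitol KO 4) with 1 library left out. With 1 library fewer the test has fewer samples. The cause of the other shifts was not tested.

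The replicate number as a block gave 6 fork genes, 24 partners and 1652 genes. Over all 16444 tested genes, deviations of same-numbered libraries correlated weakly (0.078, −0.067, 0.046 and 0.064), with 4 of 8 libraries correlating best with their own number. The labels name no pairs, and the numbers were not taken as pairs. For the fork genes, the mean centred level was lowest in library 4 of both groups (−0.27 in Mitol KO and −0.49 in Control). Control 4 was the lowest Control library in 6 of 9 members, against 30.9% of all tested genes. Whether the fork genes follow a pairing was not tested. Fen1 rests on 3 to 17 reads a library, and whether depth or overlapping genes keep it low was not tested.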

Other observations

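Other cell-cycle genes differed between the groups too. Ccna2, the S-phase and G2 cyclin, was at 1058, 1146, 725 and 505 normalized counts in Mitol KO libraries and at 120.01, 124, 371 and 283 in Control libraries, with no overlap (log2 fold change 1.90, edgeR adjusted p = 0.0119). Ccnd2, a D-type cyclin, was lower in every Mitol KO library, at 4800 ± 1105 against 7420 ± 189 in Control HSCs (SD, n = 4 each, log2 fold change −0.65, edgeR adjusted p = 0.0177).

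Dntt, the template-independent polymerase of lymphoid progenitors, stayed below the expression filter and was not tested. Its normalized counts were 0.783, 4.16, 23.8 and 75.1 in Mitol KO 1 to 4, and 0, 0, 0 and 1.80 in Control 1 to 4. It was chosen after its values were seen, and its highest library, Mitol KO 4, was the lowest of its group for all 9 tested fork genes.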
